A study of Oryza sativa with 27 samples.

Results

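Momilactones are diterpenoid defence compounds of rice. They act as phytoalexins, made on attack by pathogens, and as allelochemicals that leave the root and hold back neighbouring plants. Genes of their synthesis lie close together on chromosome 4, one of the plant gene clusters in which enzymes of 1 pathway are neighbours. The cluster is known for a cyclase of the CPS family (CPS4) that folds geranylgeranyl diphosphate to syn-copalyl diphosphate, a kaurene synthase-like enzyme (KSL4) that turns this into a pimaradiene, a pair of cytochromes P450 (CYP99A2 and CYP99A3) that oxidise the diene, and short-chain dehydrogenases (MAS) of the last steps towards momilactone A. In cultured rice cells these genes are known to be switched on together by fungal elicitors.

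The 6 rows described here are LOC_Os04g09900, LOC_Os04g09920, LOC_Os04g10000, LOC_Os04g10010, LOC_Os04g10060 and LOC_Os04g10160, out of 46102 rows of the count table. They were listed as the rows of this cluster, for CPS4, KSL4, CYP99A2, CYP99A3 and a pair of MAS dehydrogenases. The rule for the list was membership of the cluster, but earlier results of these data were known when it was made. Which identifier is which enzyme is not paired in the sources used here: 0 of the 46102 rows matched a gene of the rice reference table (RefSeq, assembly ASM3414082v1), so names are given only to the set and never to 1 identifier. That table does list 5 of the names, all on chromosome 4 and within a run of 9 consecutive gene entries, in the order CPS4, CYP99A3, MAS, KSL4, CYP99A2. All 6 rows passed the filter on low counts, and the call rule below was applied to each of them among 26465 tested loci.

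Cell suspension cultures of the rice cultivar Tsukinohikari, 5 days old, were given metcamifen or cyprosulfamide at a final 5 µM, or the carrier dimethyl sulfoxide (DMSO) alone, and polyA RNA was sequenced from cells taken 30, 90 or 240 min later. Both compounds are herbicide safeners, chemicals used beside a herbicide so that the crop is harmed less; they share an acyl sulfonamide core and differ in a side chain, a methylurea in metcamifen and a cyclopropyl amide in cyprosulfamide. Every combination of treatment and time had 3 libraries, 27 in all, described by the submitters as biological replicates, and there was no untreated group. No markers of cell type could be checked, because identifiers are not paired with names, and in such bulk samples a change in the share of cells that use a gene and a change in RNA per cell cannot be told apart.

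Library totals ranged from 5516373 to 43747251 counts, and the 3 DMSO libraries at 240 min, which carry the widest differences below, held 21620410, 20647186 and 18036501. Levels are given as CPM, that is, counts scaled to a common library total after TMM adjustment; they are not divided by transcript length, so levels of different loci are not compared. Some libraries stood apart: DMSO replicate 1 and Metcamifen replicate 1 departed from their groups in opposite ways at the cluster loci, as described below. The metcamifen label was checked with LOC_Os09g20220, a locus picked after its values were seen: it lay between 110.1 and 1196 CPM in the 9 metcamifen libraries and between 0.641 and 4.62 CPM in the other 18. Metcamifen replicate 1 was the highest metcamifen library of this locus at each time, at 228, 1196 and 185 CPM, and none of the 27 columns was identical to another.

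The 6 cluster loci were at their highest mean level in carrier-treated cells at 240 min, and there the 3 replicate libraries disagreed widely: 5 of the 6 loci were among the 14 most spread of 23114 loci. Replicates 2 and 3 were high and replicate 1 was low, at every one of the 6 loci. Neither safener gave a change that passed the test at any of the 6 loci at any time. From 30 to 240 min in carrier-treated cells, 0 of 6 loci passed with libraries taken as independent (1.89% of all loci passed). With libraries of the same replicate number treated as a series, 6 of 6 were called higher, as were 2.87% of all loci. That fit called more loci of either direction too, 1856 in place of 499. In the series of replicate 1, only 2 of 6 loci rose.

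LOC_Os04g09900 showed the widest range. Its level in DMSO replicates 1, 2 and 3 was 2.36, 6.71 and 10.9 CPM at 30 min, 1.55, 16.6 and 22.6 CPM at 90 min, and 1.42, 65.9 and 150.1 CPM at 240 min. Replicate 1 stayed low at all 3 times, while both other series climbed. Under metcamifen replicate 1 was the highest library and not the lowest. Replicates 1, 2 and 3 stood at 4.51, 1.84 and 2.01 CPM at 30 min and at 8.58, 1.72 and 1.85 CPM at 90 min. At 240 min they stood at 48.1, 2.08 and 2.47 CPM. Of the metcamifen series replicate 1 alone climbed, and replicates 2 and 3 stayed near the level of DMSO replicate 1. Under cyprosulfamide the level was 2.17, 5.12 and 2.29 CPM at 30 min, 1.51, 8.62 and 5.02 CPM at 90 min, and 3.02, 19.2 and 9.51 CPM at 240 min, with replicate 1 again the lowest each time. The DMSO value at 240 min rests on 31 counts in replicate 1 and 2677 in replicate 3, a ratio of 106 (95% exact interval 74.3 to 156, counting error only).

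LOC_Os04g09920 was scarcer. In DMSO it stood at 0.256, 1.56 and 1.59 CPM at 30 min, 0.161, 1.62 and 2.40 CPM at 90 min, and 0.0458, 5.91 and 9.31 CPM at 240 min. The lowest of these is a single count, next to 121 and 166 counts in the other two libraries, so the ratio of replicate 3 to replicate 1 (203) has a counting interval from 36.0 to 8080. Metcamifen libraries held 0.987, 0.345 and 0.206 CPM at 30 min, 1.09, 0.0747 and 0.123 CPM at 90 min, and 3.10, 0.283 and 0.309 CPM at 240 min. Replicate 1 was again the high one. Cyprosulfamide libraries ranged only from 0.177 to 1.09 CPM over the 3 times.

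LOC_Os04g10000 varied least of the 6, and its counts were high enough for the differences to be read closely. DMSO libraries held 8.09, 13.1 and 15.9 CPM at 30 min, 9.33, 17 and 17.6 CPM at 90 min, and 7.42, 28.9 and 38.4 CPM at 240 min. Metcamifen libraries held 10.6, 9.72 and 13 CPM at 30 min, 11.6, 10.5 and 8.25 CPM at 90 min, and 23.3, 7.74 and 7.52 CPM at 240 min. The pattern is that of LOC_Os04g09900 on a smaller scale: at 240 min, DMSO replicate 1 was the low control, and Metcamifen replicate 1 the high treated library. Under cyprosulfamide all 9 libraries lay between 8.69 and 13.2 CPM.

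LOC_Os04g10010 held 1.33, 1.38 and 2.95 CPM in DMSO at 30 min, 0.429, 2.46 and 2.95 CPM at 90 min, and 0.641, 9.92 and 16.8 CPM at 240 min. Under metcamifen it held 1.13, 1.15 and 1.08 CPM at 30 min, 3.05, 1.27 and 0.862 CPM at 90 min, and 8.29, 0.802 and 0.824 CPM at 240 min. At 30 min the 3 metcamifen libraries were close together and all below the 3 DMSO libraries, as at 5.35% of all tested loci. These values rest on 8, 30 and 21 counts under metcamifen and 26, 23 and 50 in DMSO. Counts this low do not resolve the closeness or the gap well. At the later times the groups overlapped. Its cyprosulfamide libraries ranged from 0.532 to 2.74 CPM.

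LOC_Os04g10060 was near its detection limit in the low libraries. DMSO libraries held 0.154, 1.98 and 2.60 CPM at 30 min, 0.268, 3.36 and 5.80 CPM at 90 min, and 0.275, 5.13 and 15.8 CPM at 240 min. Metcamifen libraries held 0.846, 0.191 and 0.309 CPM at 30 min, 1.38, 0.0747 and 0.0821 CPM at 90 min, and 3.57, 0.142 and 0.515 CPM at 240 min. Replicate 1 was thus the lowest DMSO library and the highest metcamifen library at all 3 times. Cyprosulfamide libraries ranged from 0 to 2.00 CPM, and the value of 0 was replicate 1 at 30 min.

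LOC_Os04g10160 repeated the pattern at higher counts. Its DMSO libraries held 1.59, 4.92 and 5.91 CPM at 30 min, 1.82, 7.33 and 9.98 CPM at 90 min, and 1.83, 24.1 and 49.0 CPM at 240 min. Its metcamifen libraries held 4.37, 1.34 and 2.06 CPM at 30 min, 5.67, 1.57 and 1.35 CPM at 90 min, and 18.8, 2.55 and 2.99 CPM at 240 min. At 240 min Metcamifen replicate 1 came close to DMSO replicate 2, and Metcamifen replicates 2 and 3 stood a little above DMSO replicate 1. Cyprosulfamide libraries ranged from 1.56 to 8.12 CPM, with the highest value in replicate 2 at 240 min.

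**Figure D1:**
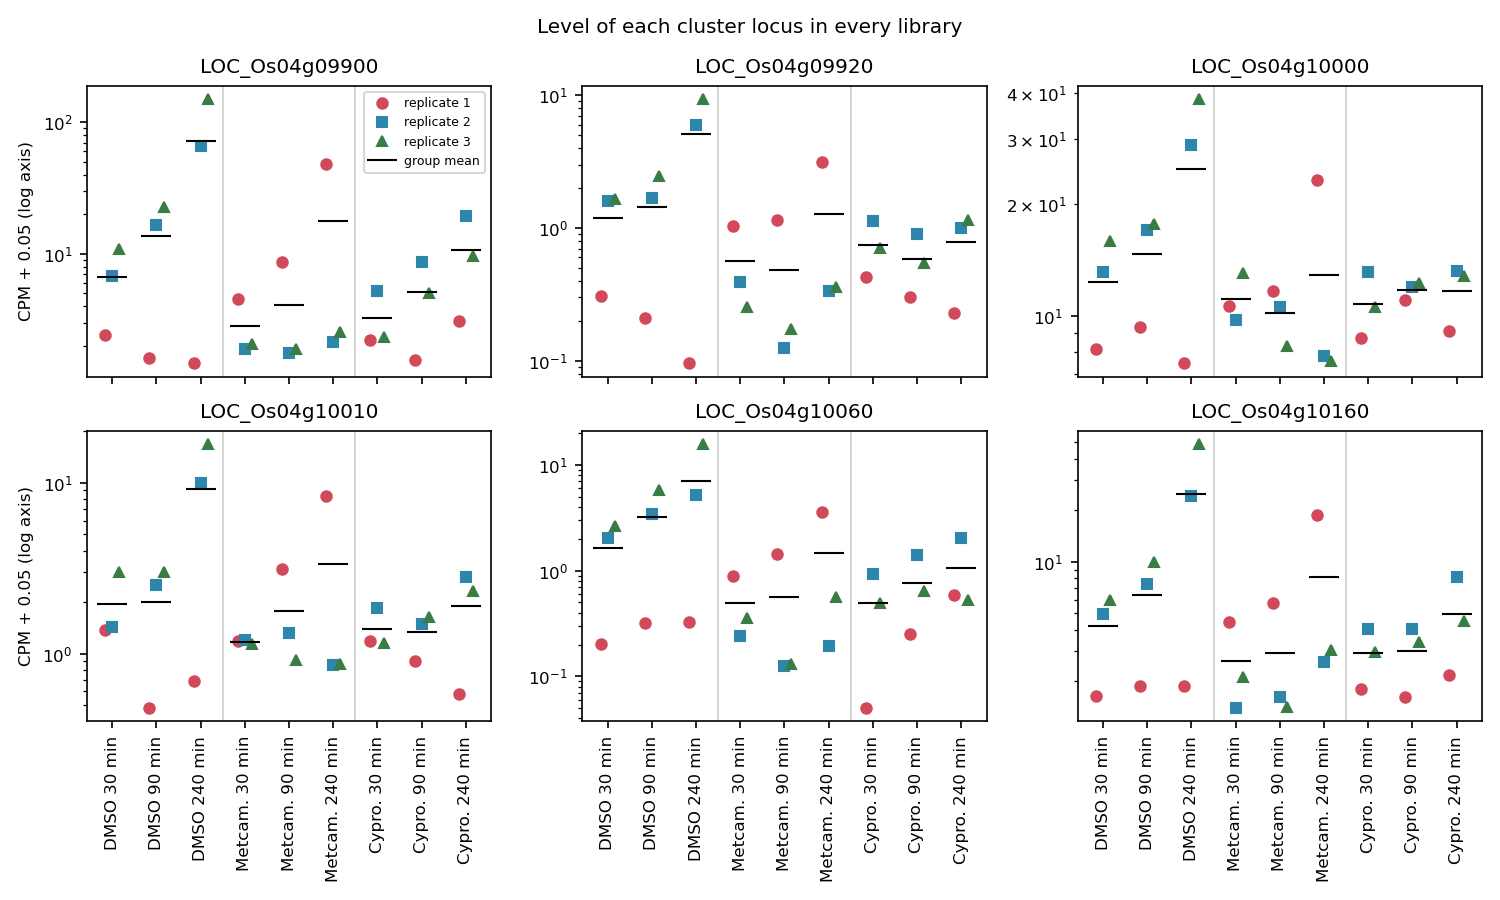
Level of each of the 6 cluster loci in every library (CPM + 0.05 on a log axis), by treatment and time after dosing, with symbols for the replicate number and a bar at the group mean (3 libraries each). DMSO replicate 1 lies below DMSO replicates 2 and 3 in every panel at each time, and Metcamifen replicate 1 lies above Metcamifen replicates 2 and 3 in every panel at 90 and 240 min.

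By group mean, the 6 loci shared the first place. The DMSO libraries at 240 min had the highest mean at 6 of 6 loci, from 5.09 ± 4.69 CPM for LOC_Os04g09920 to 72.5 ± 74.6 CPM for LOC_Os04g09900 (SD, n = 3). The lowest mean was that of metcamifen at 30 min for LOC_Os04g09900 (2.79 ± 1.50 CPM), LOC_Os04g10010 (1.12 ± 0.0344 CPM) and LOC_Os04g10160 (2.59 ± 1.58 CPM). It was that of metcamifen at 90 min for LOC_Os04g09920 (0.429 ± 0.573 CPM) and LOC_Os04g10000 (10.1 ± 1.73 CPM), and that of cyprosulfamide at 30 min for LOC_Os04g10060 (0.444 ± 0.441 CPM). No 2 neighbouring groups in any of the 6 orders were free of overlap between their libraries, so the order of the 9 groups is not resolved step by step.

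Summed over the 6 loci, the cluster took 27.7 ± 13.1 CPM in DMSO libraries at 30 min, 41.1 ± 24.7 at 90 min and 144 ± 134 at 240 min (SD, n = 3). Metcamifen libraries held 18.6 ± 3.91, 19.7 ± 10.2 and 44.5 ± 52.6 CPM, and cyprosulfamide libraries 19.3 ± 6.04, 22.3 ± 6.48 and 30.7 ± 15.4 CPM. At 240 min the single DMSO libraries lay between 11.6 and 279 CPM, the metcamifen libraries between 13.6 and 105 CPM and the cyprosulfamide libraries between 15.4 and 46.2 CPM. The lowest DMSO library was thus below every metcamifen and cyprosulfamide library of that time, and the highest was above all of them. The loci do not weigh equally in the sum. LOC_Os04g09900 gave 150.1 of the 279 CPM in DMSO replicate 3, and LOC_Os04g10000 gave 7.42 of the 11.6 CPM in DMSO replicate 1.

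**Figure D2:**
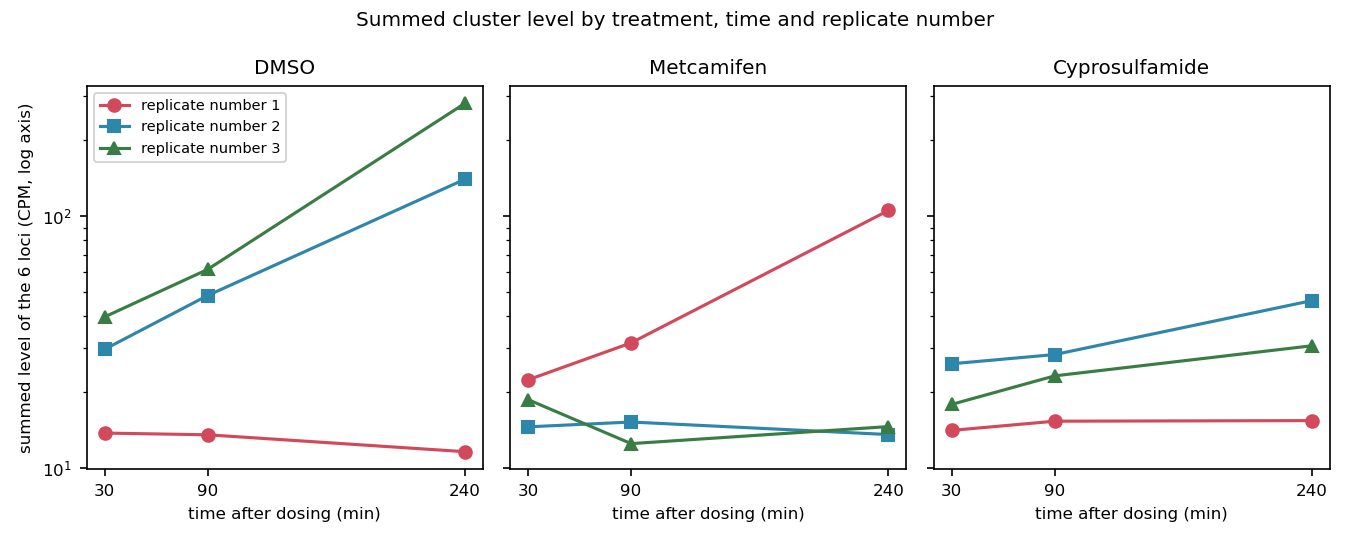
Summed level of the 6 cluster loci (CPM, log axis) against time after dosing, 1 panel per treatment, with lines joining libraries of the same replicate number. The DMSO series of replicates 2 and 3 and the metcamifen series of replicate 1 rise to between 105 and 279 CPM at 240 min, while DMSO replicate 1 and Metcamifen replicates 2 and 3 end between 11.6 and 14.6 CPM.

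The spread between replicates was wide at these loci. Among the 23114 loci with a mean of at least 1 CPM over the 27 libraries, the highest of the 3 DMSO libraries at 240 min exceeded the lowest by a median of 1.22-fold, and 95% of loci stayed below 2.36-fold (prior count 2). LOC_Os04g09900 reached 98.2-fold by the same measure, which placed it 1st of the 23114. LOC_Os04g09920 came 2nd (60.2-fold), LOC_Os04g10060 6th (41.3-fold), LOC_Os04g10160 11th (25.3-fold), LOC_Os04g10010 14th (22.5-fold) and LOC_Os04g10000 169th (5.12-fold). These ranks describe the loci and were not tested.

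The same loci were spread widely among the metcamifen libraries at 240 min, where the median locus differed 1.18-fold and the 6 members ranked 2nd, 5th, 25th, 30th, 37th and 250th. LOC_Os04g09900 differed there by 22.1-fold and LOC_Os04g10060 by 14.6-fold. In the cyprosulfamide libraries of that time the 6 members differed by 1.45- to 6.17-fold, with a median locus at 1.21-fold. The biological coefficient of variation that the fit assigned to the loci, a measure of the spread within all 9 groups, was 0.352 for LOC_Os04g10000 and between 0.685 and 1.04 for the other 5. Ranked among all tested loci, these values lay at percentile 96.6 for LOC_Os04g10000 and at percentiles 99.67 to 99.97 for the other 5.

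**Figure D3:**
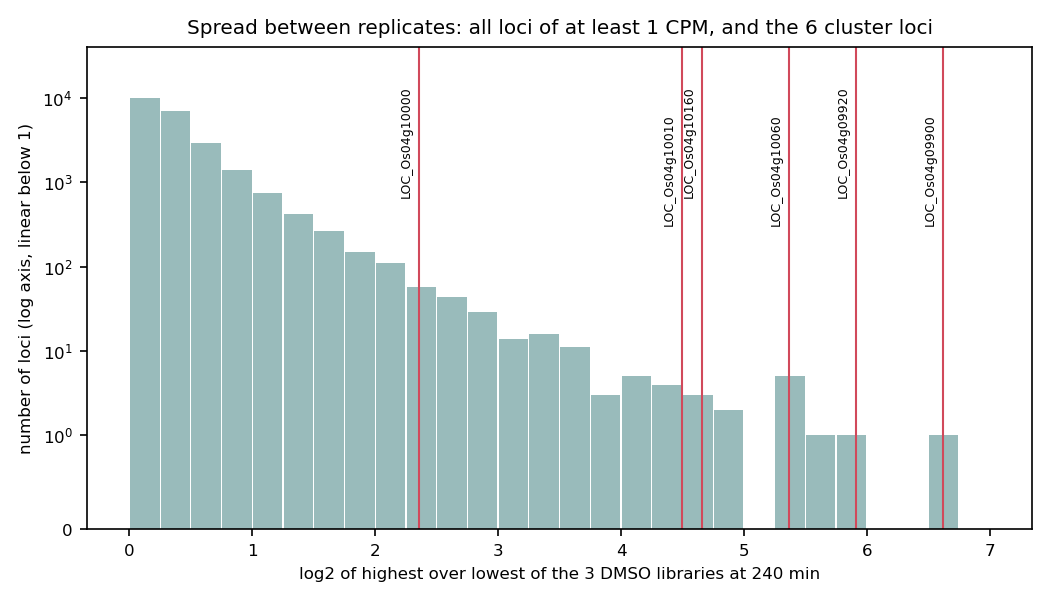
Histogram of the spread between the 3 DMSO libraries at 240 min (log2 of the highest over the lowest, prior count 2) for the 23114 loci of at least 1 CPM, with the number of loci on a log axis that is linear below 1. Vertical lines mark the 6 cluster loci, of which 5 lie in the far right tail and LOC_Os04g10000 nearer to the bulk.

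Libraries took the same order at all 6 loci in DMSO. Replicate 1 was the lowest and replicate 3 the highest at 6 of 6 loci at 30, 90 and 240 min. Among the 23114 loci, 1302 (5.63%) had this order at all 3 times. Adding that Metcamifen replicate 1 was the highest metcamifen library at 90 and 240 min left 1044 loci (4.52%), with all 6 members among them. Adding further that DMSO replicate 3 exceeded replicate 1 at least 4-fold at 240 min left 180 loci (0.779%), again with all 6. With Metcamifen replicate 1 also at least 4-fold above both other metcamifen libraries at 240 min, 52 loci (0.225%) remained, 5 of them members, without LOC_Os04g10000. These conditions were written after the members' values were seen, so the counts show how many other loci share the pattern and are no test of it.

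Libraries of all 23114 loci did not show such an order in general. DMSO replicate 1 was the lowest library at 39.5% of loci at 240 min and the highest at 40.0%. Metcamifen replicate 1 was the lowest at 40.1% and the highest at 36.7%. The opposite departure of these libraries was not limited to the cluster. Over 15516 loci, deviations of DMSO replicate 1 and Metcamifen replicate 1 from their group means correlated at -0.444, -0.771 and -0.837 at 30, 90 and 240 min. At 240 min the correlation was -0.531 for replicate 2 and -0.515 for replicate 3.

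Carrier-treated cells were compared between times. From 30 to 240 min the fitted log2 change of DMSO cells was positive at 6 of 6 loci, from 1.01 (SE 0.418) at LOC_Os04g10000 to 3.46 (SE 1.14) at LOC_Os04g09900, with a median of 2.22 next to 0.00 over all tested loci. With the 3 libraries of each time taken as independent, 0 of 6 passed an adjusted p of 0.05 in edgeR's quasi-likelihood test (adjusted p from 0.132 to 0.400), where 1.89% of all loci passed. Without the filter on low counts 2 of 6 passed, LOC_Os04g09900 and LOC_Os04g10160 (adjusted p = 0.0404 and 0.0372; 0.332% of all loci were called higher). All 6 had an unadjusted p under 0.05, as did 12.4% of all loci. From 90 to 240 min the median was 1.91, and 0 of 6 passed (adjusted p from 0.312 to 0.818; 0.710% of all loci passed), with 3 of 6 at an unadjusted p under 0.05 (9.12% of all loci); from 30 to 90 min it was 0.47, and 0 of 6 passed (adjusted p of 1 at each; 0.242% passed), with none under an unadjusted 0.05 (5.65% of all loci). DESeq2 called 0 of 6 in each of these comparisons.

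Same-numbered DMSO libraries of different times deviated together from their group means (correlation 0.354 to 0.824 over 15516 loci), so the times can be compared within each replicate number. With the replicate series as a block in edgeR, 6 of 6 loci were called higher at 240 than at 30 min in DMSO, as were 2.87% of all loci. The block fits 1 common change to the 3 series, with a spread estimated over all treatments. Its p values therefore do not show that each series rose, and in replicate 1 only 2 of 6 loci did. The fitted log2 change was 3.03 at LOC_Os04g09900 (adjusted p = 0.000123), 2.30 at LOC_Os04g10160 (adjusted p = 1.74e-05) and 2.02 at LOC_Os04g09920 (adjusted p = 0.000205). It was 2.01 at LOC_Os04g10060 (adjusted p = 0.000118), 1.99 at LOC_Os04g10010 (adjusted p = 0.00516) and 0.87 at LOC_Os04g10000 (adjusted p = 0.0311). From 90 to 240 min, 5 of 6 were called higher under the block (1.80% of all loci), by 1.03 to 2.12 log2 units. LOC_Os04g10000 did not pass (0.62, adjusted p = 0.179).

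This rise belonged to replicates 2 and 3 and not to replicate 1. From 30 to 240 min the 6 loci rose 2.21- to 9.81-fold in DMSO replicate 2 and 2.42- to 13.8-fold in replicate 3. In replicate 1 the ratio ran from 0.179 to 1.79, above 1 at 2 of 6 loci. Without the DMSO library of replicate 1 at 240 min, and with no block, 4 of 6 loci passed for 240 against 30 min, by 1.44 to 4.03 log2 units (1.13% of all loci were called higher). For 240 against 90 min 1 of 6 passed, LOC_Os04g10010 (0.444% of all loci); leaving out the lowest library raises these estimates by construction. Among the carrier series the rise is therefore a feature of 2 of 3, and why the series differ was not tested. Safener series rose as well. All 6 loci rose in Metcamifen replicate 1 (2.20- to 10.7-fold) and Cyprosulfamide replicate 3 (1.06- to 4.15-fold), and 5 of 6 in Cyprosulfamide replicate 2. In Metcamifen replicates 2 and 3, 2 and 4 of 6 rose, and in Cyprosulfamide replicate 1, 3 of the 5 with a ratio. Times were not tested within a safener.

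Metcamifen was compared with DMSO at each time. At 30 min, 0 of 6 loci passed (1.35% of all loci passed), with log2 fold changes from -2.17 to -0.15, a median of -1.16 next to 0.00 over all loci, and adjusted p from 0.820 to 0.988. LOC_Os04g10010 was the only one of the 6 whose metcamifen libraries all lay below its DMSO libraries, and its estimate was -0.74 on the log2 scale (adjusted p = 0.938, SE 0.960). 5.35% of all tested loci had their metcamifen libraries below their DMSO libraries in the same way. No unadjusted p was under 0.05 (7.33% of all loci). At 90 min, 0 of 6 passed (5.94% of all loci), with log2 fold changes from -2.78 to -0.23, a median of -1.51 and adjusted p from 0.335 to 0.975. The unadjusted p was under 0.05 at 1 of 6 loci, as at 14.5% of all loci. DESeq2, too, called 0 of 6 at each time.

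At 240 min the estimates were negative at 6 of 6 loci again, and 0 of 6 passed (4.65% of all loci). LOC_Os04g10060 had a log2 fold change of -2.19 (95% interval -4.36 to -0.03, adjusted p = 0.324) and LOC_Os04g09900 of -1.98 (-4.13 to 0.16, adjusted p = 0.387). LOC_Os04g10000, the best measured, had -0.92 (-1.78 to -0.05, adjusted p = 0.289). Over the 6 loci the lower ends of the intervals lay between -4.36 and -1.78 and the upper ends between -0.05 and 0.18, so neither a large fall nor the lack of one was shown. An unadjusted p under 0.05 was reached by 3 of 6 loci at 240 min and by 3980 of all 26465 loci.

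The outcome at 240 min depended on replicate 1. Without the metcamifen library of replicate 1, 3 of 6 loci were called lower at 240 min (1.34% of all loci), at log2 fold changes of -5.02 for LOC_Os04g09900, -1.70 for LOC_Os04g10000 and -3.47 for LOC_Os04g10010. Without the DMSO library of replicate 1, 1 of 6 was called lower, LOC_Os04g10000 (1.63% of all loci). With all 3 DMSO libraries of replicate 1 left out, 5 of 6 were called lower at 240 min (2.78% of all loci), by log2 fold changes of -2.76 to -1.35, and LOC_Os04g09900 missed with an adjusted p of 0.0578; at 90 min LOC_Os04g10060 alone was called (1.38% of all loci). Taking out both the DMSO and the metcamifen libraries of replicate 1, a choice made after the values were seen, gave 3, 5 and 6 of 6 loci called lower at 30, 90 and 240 min, next to 5.19%, 3.00% and 7.79% of all loci. Each of these choices removes libraries in which the members were lowest in DMSO or highest in metcamifen at most loci, so the direction of the shift is built in and the calls are no separate support for a fall.

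**Figure D4:**
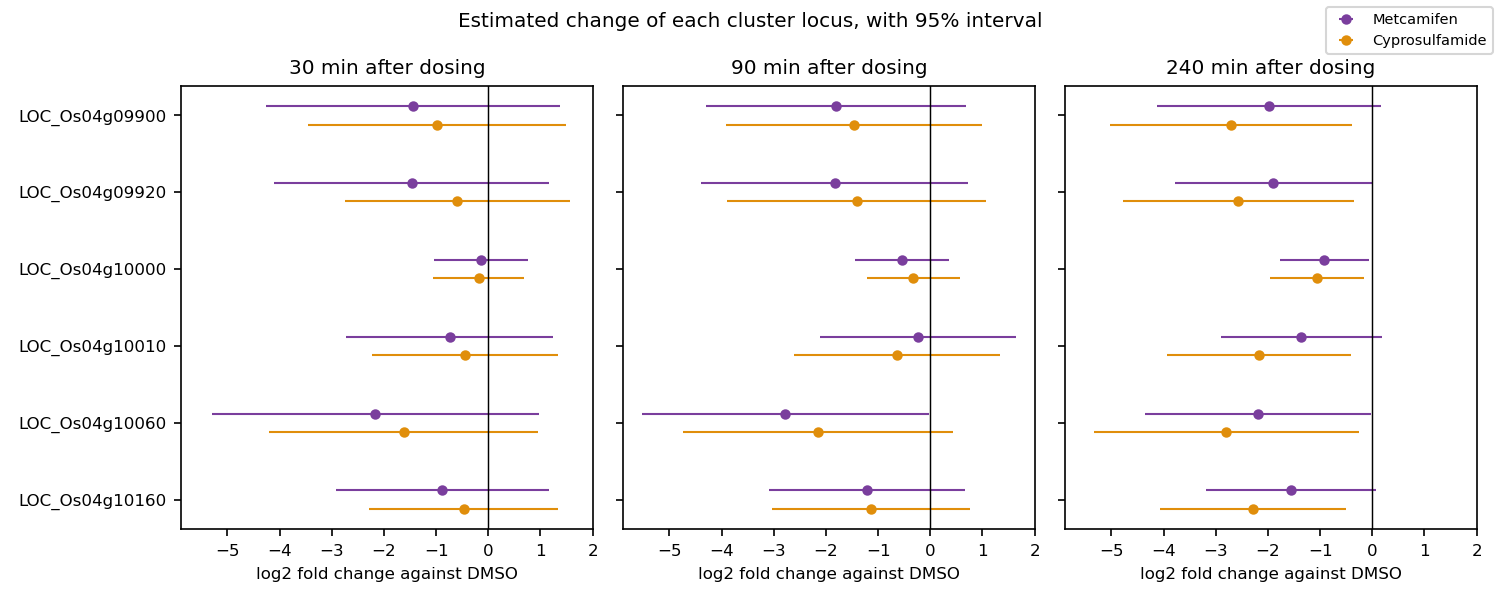
Log2 fold change against DMSO of each cluster locus at 30, 90 and 240 min, for metcamifen and cyprosulfamide, from the fit to all 27 libraries; points are estimates and lines 95% intervals. All estimates are negative, their intervals overlap between the safeners at every locus and time, and those of LOC_Os04g10000 are the narrowest.

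The change of the metcamifen effect between times was tested directly. It passed at 0 of 6 loci from 30 to 90 min (1.69% of all loci passed), 0 of 6 from 90 to 240 min (1.93%) and 0 of 6 from 30 to 240 min (1.33%). Median changes were -0.36, -0.26 and -0.58 log2 units, and adjusted p lay between 0.876 and 1.00. None of the 6 had an unadjusted p under 0.05 in these tests, against 9.51%, 10.3% and 8.61% of all loci, and DESeq2 called none. With the replicate series as a block the counts stayed at 0 of 6. Without the 6 libraries of replicate 1 of DMSO and metcamifen, LOC_Os04g10000 and LOC_Os04g10010 were called with a more negative effect at 240 min than at 30 or 90 min, as were 0.548% and 1.79% of all loci.

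Cyprosulfamide at the same dose gave lower estimates than DMSO at 6 of 6 loci at each time, and none passed. At 30 min the log2 fold changes ran from -1.62 to -0.19 with a median of -0.53 (0 of 6 passed, 0.00378% of all loci). At 90 min they ran from -2.15 to -0.32 with a median of -1.28 (0 of 6, 0% of all loci), and at 240 min from -2.80 to -1.06 with a median of -2.43 (0 of 6, 0% of all loci). At 240 min all 6 loci had an unadjusted p under 0.05 (0.0146 to 0.0320), as did 6.31% of all loci, and the adjusted p was 0.750 to 0.783. At 30 and 90 min none of the 6 had an unadjusted p under 0.05 (9.63% and 3.09% of all loci), and DESeq2 called 0 of 6 at each time. The medians over all loci were within 0.02 of 0 at the 3 times. In single libraries, DMSO replicate 1 lay below every cyprosulfamide library at 240 min for 5 of 6 loci, and the groups overlapped at each locus. With the 3 DMSO libraries of replicate 1 left out, the adjusted p at 240 min was 0.0766 to 0.0955, and with the metcamifen libraries of replicate 1 also out, 6 of 6 loci were called lower (3.80% of all loci); both choices remove the lowest DMSO library, so this direction is built in too. Both safeners were set against the same DMSO libraries, so the negative estimates of both are not independent of each other.

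Both safeners were compared directly at the matched dose and times, 3 comparisons for each of the 6 loci, with p adjusted over all tested loci in each comparison. None of the 6 loci differed at 30 min (1.42% of all loci passed), 90 min (6.79%) or 240 min (3.94%), with adjusted p of 0.800 or more. None had an unadjusted p under 0.05, a level reached by 9.48%, 17.6% and 13.8% of all loci, and DESeq2 called none. The median difference, metcamifen minus cyprosulfamide, was -0.43, -0.28 and 0.70 log2 units. The 95% interval of LOC_Os04g10000, the narrowest, ran from -0.84 to 0.93 at 30 min and from -0.78 to 1.07 at 240 min. That of LOC_Os04g09900 ran from -3.31 to 2.39 and from -1.59 to 3.04. With intervals of this width the test does not show that the compounds act alike at the cluster.

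At 240 min the sign of that difference followed 1 library. Metcamifen replicate 1 was above every cyprosulfamide library at 6 of 6 loci. Without it, all 6 estimates became negative, from -2.30 to -0.64, and none was called.

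The 6 loci moved together across libraries. Over the 9 group means of log2 CPM, the 15 pairs of members correlated at 0.757 to 0.973, and over the 27 libraries their deviations from the group means correlated at 0.834 to 0.982. LOC_Os04g10160 followed the mean of the other 5 most closely (r = 0.969) and LOC_Os04g10010 least (r = 0.876). Points of 1 group share treatment and time, and all loci of 1 library share its depth, so these values are descriptions.

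Among 23108 other loci of at least 1 CPM, those with group means most like the members' mean profile were LOC_Os03g52170 (r = 0.994 over 9 groups) and LOC_Os07g39270 (r = 0.992). Their deviations within groups also followed those of the members, at r = 0.985 and 0.989 over 27 libraries. LOC_Os07g39270 held 4.99, 53.1 and 104 CPM in DMSO replicates 1, 2 and 3 at 240 min, and 48.0, 7.03 and 5.77 CPM in the metcamifen libraries. LOC_Os03g52170 held 38.2, 158 and 234 CPM and 119, 38.8 and 39.9 CPM in the same libraries. Both carry the low DMSO replicate 1 and the high Metcamifen replicate 1 of the cluster.

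**Figure D5:**
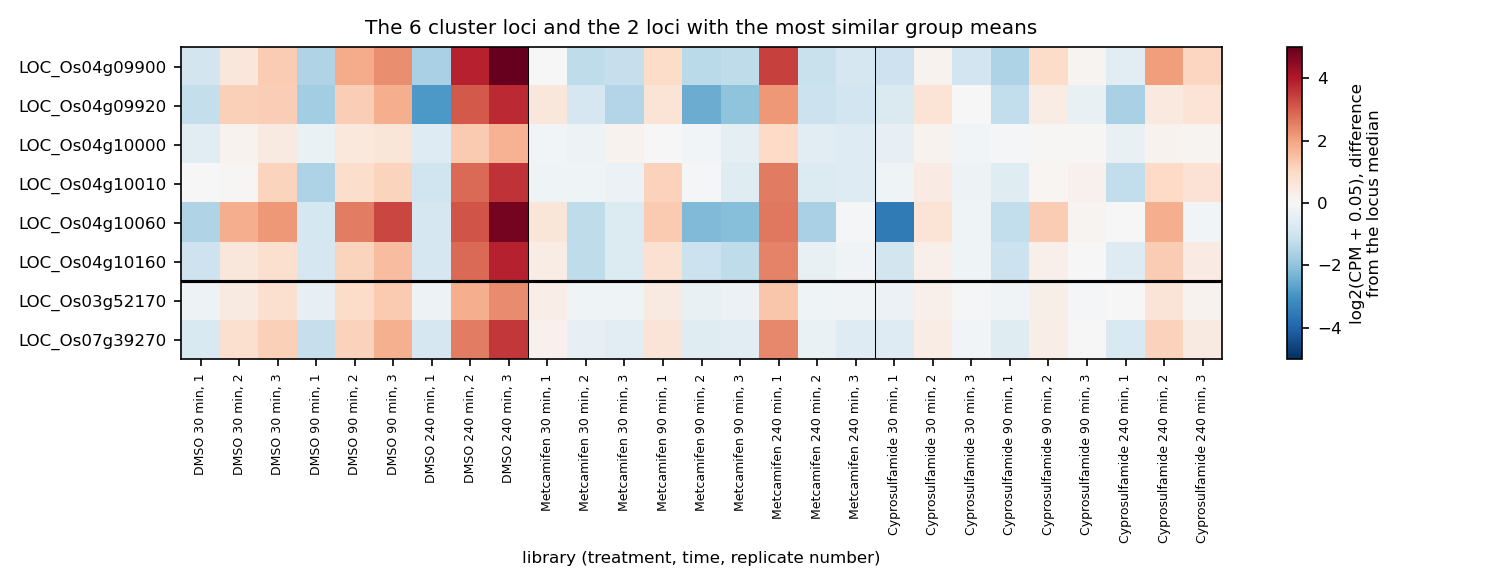
Log2(CPM + 0.05) of the 6 cluster loci and the 2 loci with the most similar group means, as the difference from each locus's own median over the 27 libraries, with 1 column per library. At each of the 8 loci the highest library is DMSO replicate 3 at 240 min, and the highest of the 9 metcamifen libraries is replicate 1 at 240 min.

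Most rows beside the cluster held few counts. Taking the 13 rows that lie between the first and last member by identifier and 10 rows on either side, 33 neighbouring rows were examined, and 8 of them had enough counts to be tested. Of the 13 rows in between, 1 was tested, and the largest total of any of them over the 27 libraries was 138 counts. None of the 8 tested neighbours was higher in any of the 15 contrasts, and 1 was lower in 4 of them. That row, LOC_Os04g09800, named after its values were seen, was lower under metcamifen than under DMSO at 240 min (by -1.44 log2 units, adjusted p = 0.00134 in edgeR, SE 0.269). In the 4 contrasts that called it, 1.33% to 4.65% of all loci passed. In 2 of the 8 tested neighbours the DMSO libraries at 240 min took the order seen in the cluster. The share of all loci with this order at 240 min alone was not counted. The tested row in between was not among these 2. It held 0.0916, 0.684 and 0.617 CPM in DMSO replicates 1, 2 and 3 at 240 min, so replicate 1 was lowest there too.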

How the data were processed

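PolyA RNA of 27 libraries (9 groups of treatment and time, 3 replicates each) was measured by sequencing. The deposited file is a single matrix of raw counts, with loci in rows and libraries in columns, which the authors made from their reads; its values are whole and unscaled. GSNAP and edgeR are the tools listed, with no version, in the submitters' processing notes. Not given in the sources used here: genome build, annotation, strand and how reads that match several loci were handled. Counts of loci with near-identical copies, such as paralogous P450 or dehydrogenase genes, and of loci that overlap or lie antisense to each other, are for that reason uncertain. No sequence of the members is shown for the lack of a table that pairs their identifiers with sequences here.

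Libraries were grouped by the labels for treatment, time and replicate. From the counts, loci were filtered with filterByExpr (minimum count 10, minimum total 15; 26465 loci kept), scaled by TMM and fitted with 9 group means by edgeR's quasi-likelihood model (edgeR 4.0.16, R 4.3.3; 18 residual degrees of freedom). Tests were two-sided with Benjamini-Hochberg adjustment over all 26465 loci within each of 15 contrasts, and a call is an adjusted p under 0.05. Standard errors were derived from each estimate and its F value. Ratios between single libraries have exact 95% intervals for counting error only.

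The fit took libraries as independent. Whether numbers pair libraries was checked by correlating deviations from group means: same-numbered libraries of different times correlated at 0.354 to 0.824 in DMSO, 0.246 to 0.738 in metcamifen and -0.0791 to 0.548 in cyprosulfamide, so numbers were taken to pair times within DMSO and metcamifen. Between treatments of one time they correlated at -0.837 to -0.292 (metcamifen and DMSO), 0.0444 to 0.586 (cyprosulfamide and DMSO) and -0.540 to 0.0993 (metcamifen and cyprosulfamide). Not every pair passed 0.1, and these were not taken as paired. The replicate-block alternative still joined same-numbered libraries of all treatments in contrasts between treatments. In the other contrasts it joined them within each treatment, cyprosulfamide included. The labels do not say what a number stands for.

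The members, lists and tests were chosen with earlier results of these data known. All 6 members are named in every contrast. Of other loci, the rule names at most 2, those of at least 1 CPM whose 9 group means correlate best with the members' profile. LOC_Os09g20220 and LOC_Os04g09800 were named outside this rule, after their values were seen. A list of other diterpenoid pathway loci was not used, since its identifiers are not paired with names. Alternatives were RLE scaling, DESeq2 1.42.0, no count filter, the compared libraries alone, thinning to the smallest library, a replicate block, each library left out, the 3 DMSO libraries of replicate 1 left out and, chosen after seeing the data, those and the 3 metcamifen libraries of replicate 1 left out.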

Additional observations from a re-analysis of the deposited data

How the results depend on the processing

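The 6 loci in 15 contrasts gave 90 log2 changes, none called in the fit to all libraries. RLE scaling, DESeq2 and the compared libraries alone left the count of called members at 0 in each contrast and turned no sign. In the compared libraries alone some members missed the count filter for metcamifen against cyprosulfamide and were not tested. These were LOC_Os04g09920 and LOC_Os04g10060 at 90 min and LOC_Os04g10060 at 240 min. Without the low-count filter, 2 of 6 were called in DMSO at 240 against 30 min (0.332% of all loci were called higher). With the replicate block, 5 of 6 were called in DMSO from 90 to 240 min and 6 of 6 from 30 to 240 min (1.80% and 2.87% of all loci were called higher). The block changed no other count of members. It turned LOC_Os04g10010 in DMSO from 30 to 90 min to -0.09. Without the 3 DMSO libraries of replicate 1, 1 of 6 was called for metcamifen against DMSO at 90 min and 5 of 6 at 240 min (1.38% and 2.78% of all loci were called lower). Without these and the 3 metcamifen libraries of replicate 1, a choice made after seeing the data, more members were called. For metcamifen against DMSO at 30, 90 and 240 min the counts were 3, 5 and 6 (5.19%, 3.00% and 7.79% of all loci were called lower). The count was 6 for cyprosulfamide against DMSO at 240 min (3.80% of all loci). It was 2 each for the change of the metcamifen effect from 90 or 30 to 240 min (1.79% and 0.548% of all loci). In DMSO at 240 against 90 or 30 min it was 5 each, next to 85 and 258 of 26639 loci called higher. This choice leaves out the DMSO series in which only 2 of 6 loci rose from 30 to 240 min, so that direction is built in.

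Signs also turned for estimates that were not called. Thinning gave, for metcamifen against cyprosulfamide, -0.01 at LOC_Os04g10000 and 0.07 at LOC_Os04g10010 at 30 min, and 0.05 at LOC_Os04g09920 and -0.50 at LOC_Os04g10010 at 90 min; the change of the metcamifen effect became -0.58 at LOC_Os04g10010 from 30 to 90 min and 0.11 at LOC_Os04g09900 from 90 to 240 min. Without the 6 libraries, metcamifen against cyprosulfamide at 240 min became -2.32, -1.52, -0.64, -1.32, -1.88 and -0.91 in the order of the identifiers, and LOC_Os04g10010 became -0.27 at 90 min and -0.45 for the change from 30 to 90 min.

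Leaving out 1 library at a time moved the count of called members between 0 and 3 for metcamifen against DMSO at 240 min, 0 and 4 for DMSO at 240 against 30 min, and 0 and 1 for 240 against 90 min. Estimates that turned sign ranged as follows. Against DMSO, LOC_Os04g10000 ranged from -0.37 to 0.08 under metcamifen at 30 min and from -0.42 to 0.04 under cyprosulfamide, LOC_Os04g10010 from -0.74 to 0.02 under cyprosulfamide at 30 min and from -0.89 to 0.22 under metcamifen at 90 min. The change of the metcamifen effect from 30 to 90 min ranged from -1.46 to 0.23 at LOC_Os04g09900, -2.16 to 0.31 at LOC_Os04g09920, -0.16 to 0.96 at LOC_Os04g10010, -3.01 to 0.20 at LOC_Os04g10060 and -1.25 to 0.15 at LOC_Os04g10160. From 90 to 240 min it ranged from -3.21 to 0.91 at LOC_Os04g09900, -2.25 to 1.72 at LOC_Os04g09920, -1.16 to 0.08 at LOC_Os04g10000, -1.89 to 2.98 at LOC_Os04g10060 and -1.97 to 0.59 at LOC_Os04g10160. From 30 to 240 min it ranged from -3.57 to 0.55 at LOC_Os04g09900, -2.61 to 0.33 at LOC_Os04g09920, -2.73 to 0.16 at LOC_Os04g10010, -2.50 to 1.34 at LOC_Os04g10060 and -2.31 to 0.25 at LOC_Os04g10160. In DMSO, LOC_Os04g09920 ranged from -0.36 to 0.84 and LOC_Os04g10010 from -0.41 to 0.52 at 90 against 30 min, and LOC_Os04g10060 from -0.22 to 1.97 at 240 against 90 min. Metcamifen against cyprosulfamide ranged at 30 min from -0.79 to 0.09 at LOC_Os04g09900, -0.10 to 0.21 at LOC_Os04g10000 and -1.02 to 0.55 at LOC_Os04g10060. At 90 min it ranged from -1.44 to 0.40 at LOC_Os04g09900, -2.21 to 0.19 at LOC_Os04g09920, -0.26 to 0.80 at LOC_Os04g10010, -3.03 to 0.38 at LOC_Os04g10060 and -0.99 to 0.34 at LOC_Os04g10160, and at 240 min from -2.30 to 1.38, -1.51 to 1.20, -0.64 to 0.43, -1.30 to 1.30, -1.87 to 1.60 and -0.90 to 1.23 in the order of the identifiers. The causes were not tested.

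Counts over all loci moved by over 1.5 times too. For cyprosulfamide at 30 min, 1 call became 40 in DESeq2, 50 without the filter, 0 in the compared libraries alone, after thinning, with the block or without the 3 DMSO libraries, and 0 to 109 with 1 library out; at 240 min, 0 became 5 in DESeq2, 15 without the 3 DMSO libraries and 0 to 4 with 1 library out. For metcamifen against DMSO at 240 min, 1231 became 386 in the compared libraries alone, 796 after thinning and 746 to 1152 with 1 library out. The changes of the metcamifen effect (448, 510 and 352) became 296, 330 and 222 after thinning and 1484, 1646 and 1002 with the block; the last was 198 in the compared libraries alone and the middle one 334 to 644 with 1 library out. Metcamifen against cyprosulfamide at 240 min (1044) was 665 to 767 with 1 library out. DMSO contrasts (64, 188 and 499) became 13, 1 and 0 in the compared libraries alone, 34, 109 and 245 after thinning, 441, 997 and 1856 with the block, and 29 to 41, 87 to 262 and 179 to 581 with 1 library out; the first was 112 in DESeq2 and 23 without the 3 DMSO libraries, which gave 87 for the second. Without the 6 libraries, metcamifen against DMSO gave 1869 at 30 min (356 in all libraries) and 3143 at 240 min, cyprosulfamide 473, 54 and 1252 (1, 0 and 0), and DMSO at 90 against 30 min 28. Depth limits LOC_Os04g09920, LOC_Os04g10010 and LOC_Os04g10060, which held fewer than 10 counts in some libraries.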
